A study of Mus musculus with 9 samples.

Results

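The collagen chain genes were taken as every gene whose symbol is Col, digits, a and digits, such as Col1a1. The RefSeq table held 44 such genes, all 44 had at least 1 probe on the array, and they stood among 22911 genes with a probe. Of these, 33 were bright enough to be tested, against 16590 of all genes. The 44 genes were placed in 7 classes by the collagen type they encode: 8 fibrillar, 7 cartilage, 8 basement membrane, 7 beaded filament and anchoring fibril, 6 fibril-associated, 4 transmembrane, and 4 short chain and other genes. The cartilage class includes the fibril-forming chain genes Col2a1, Col11a1 and Col11a2. Below, fibrillar means the class of 8 genes without these. RNA of the whole lung was hybridised to one-colour (Cy3) Agilent arrays, from C57BL/6J males that were 12 weeks old at the start. For 6 months the mice breathed fresh air, 3.5% cigarette smoke (CS) or a 3.5% aerosol of IQOS, a device that heats tobacco without burning it. Each group had 3 arrays, named air 1 to 3, CS 1 to 3 and IQOS 1 to 3. The labels do not say that each array came from its own animal, so the p-values rest on a spread between samples that may be technical.

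Collagens are built from 3 chains wound into a triple helix. Fibrillar collagens form the ropes that give the lung its tensile strength, and type IV collagen forms the mesh of basement membranes. Other collagens coat fibrils, anchor membranes or sit in the cell surface. In the lung most fibrillar collagen is made by fibroblasts and smooth muscle cells, and the alveolar basement membrane lies between epithelium and capillary. The chains are hydroxylated and folded in the endoplasmic reticulum, trimmed outside the cell, and crosslinked by lysyl oxidases.

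The fibrillar class is shown by its promoters because most of its tested genes fell in CS. Promoters are given for its genes that were called in some comparison and had a window in the RefSeq table (build GRCm38.p6). Col1a1 was called too but had no window. Of the promoters shown, all but that of Col27a1, called only between IQOS and CS, belong to genes that fell in CS. Each is the 250 bases before the gene's start, read 5′ to 3′ on the gene's strand. Capitals mark the TATA box (TATAAA), the CCAAT box (CCAAT) and the GC box (GGGCGG), searched on both strands.
Col1a2, chr6:4505368-4505617, plus strand: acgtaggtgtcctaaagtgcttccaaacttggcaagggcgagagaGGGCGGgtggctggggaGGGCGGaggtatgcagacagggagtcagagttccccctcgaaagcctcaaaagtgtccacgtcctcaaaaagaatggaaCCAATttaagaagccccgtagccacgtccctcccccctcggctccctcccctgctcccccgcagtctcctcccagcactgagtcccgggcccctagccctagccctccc
Col3a1, chr1:45311288-45311537, plus strand: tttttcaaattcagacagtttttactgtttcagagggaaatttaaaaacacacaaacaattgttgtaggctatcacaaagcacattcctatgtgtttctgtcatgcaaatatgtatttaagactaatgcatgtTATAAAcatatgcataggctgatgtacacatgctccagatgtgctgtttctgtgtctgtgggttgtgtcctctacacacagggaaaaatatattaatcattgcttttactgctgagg
Col5a1, chr2:27886175-27886424, plus strand: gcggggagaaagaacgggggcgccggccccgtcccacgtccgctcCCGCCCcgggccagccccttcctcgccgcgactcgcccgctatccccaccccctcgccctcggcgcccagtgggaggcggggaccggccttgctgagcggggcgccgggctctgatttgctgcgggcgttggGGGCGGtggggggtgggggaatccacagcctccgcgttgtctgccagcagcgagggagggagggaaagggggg
Col5a3, chr9:20815068-20815317, minus strand: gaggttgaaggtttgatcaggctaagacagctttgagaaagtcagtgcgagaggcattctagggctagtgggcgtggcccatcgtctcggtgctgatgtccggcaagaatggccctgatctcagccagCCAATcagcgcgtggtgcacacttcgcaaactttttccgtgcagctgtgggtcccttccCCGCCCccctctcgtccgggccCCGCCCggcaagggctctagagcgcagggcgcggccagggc
Col27a1, chr4:63215162-63215411, plus strand: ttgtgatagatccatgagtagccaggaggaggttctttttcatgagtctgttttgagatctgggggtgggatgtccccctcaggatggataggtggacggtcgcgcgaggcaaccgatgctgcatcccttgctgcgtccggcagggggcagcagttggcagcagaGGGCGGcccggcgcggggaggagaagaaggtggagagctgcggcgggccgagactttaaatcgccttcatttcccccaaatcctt

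These promoters did not share 1 arrangement of the boxes. The Col3a1 window held a TATA box and neither of the others, the Col1a2 and Col5a3 windows held a CCAAT box and GC boxes, and those of Col5a1 and Col27a1 matched the GC box alone. A window was found for 35 of the 44 genes, 38 windows in all. A TATA box stood in 5 of the 38 (13.2%, against 12.4% of 32851 windows of all genes), a CCAAT box in 13 (34.2%, against 33.8%) and a GC box in 22 (57.9%, against 32.7%). These are matches of letters and not binding sites. Col4a1 on the minus strand and Col4a2 on the plus strand, chains of 1 basement membrane molecule, run away from each other, and by these starts their 5′ ends overlap. The 20 bases between the start positions lie within both genes, hold a GC box and are shown for this arrangement.
Col4a1 and Col4a2, chr8:11312806-11312825, plus strand: gtgcgcGGGCGGcgtctcca

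With smoke, fibrillar collagen genes were lower, and 9 of the 33 tested collagen genes fell against air while 1 rose. A gene was called when its Benjamini-Hochberg adjusted p in limma, over all 37258 tested probes, was under 0.05. The 9 genes are 27.3% of those tested, and 6.12% of all tested genes were called lower in this comparison. The 1 gene that rose is 3.03%, against 5.59%, and only this gene was above every air array on all CS arrays, which held for 17.2% of all tested genes. The median change of the 33 genes was -0.32 on the log2 scale, and that of all genes was -0.02. On all 3 CS arrays 19 of the 33 (57.6%) were below every air array, which held for 21% of all tested genes. These shares describe the list and were not tested as a list. None of the collagen calls between CS and air remained in a fit with the array's row on its slide as a covariate, as given below. No collagen gene was called between IQOS and air (2.88% of all tested genes were), and 5 were called between IQOS and CS (10.1% of all). By class, 5 of 7 tested fibrillar genes fell in CS (median -0.78), against 4 of the 26 other tested collagen genes (median -0.25). Col2a1, a fibril-forming chain gene of the cartilage class, is among those 4. This contrast of lists was not tested.

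**Figure D1:**
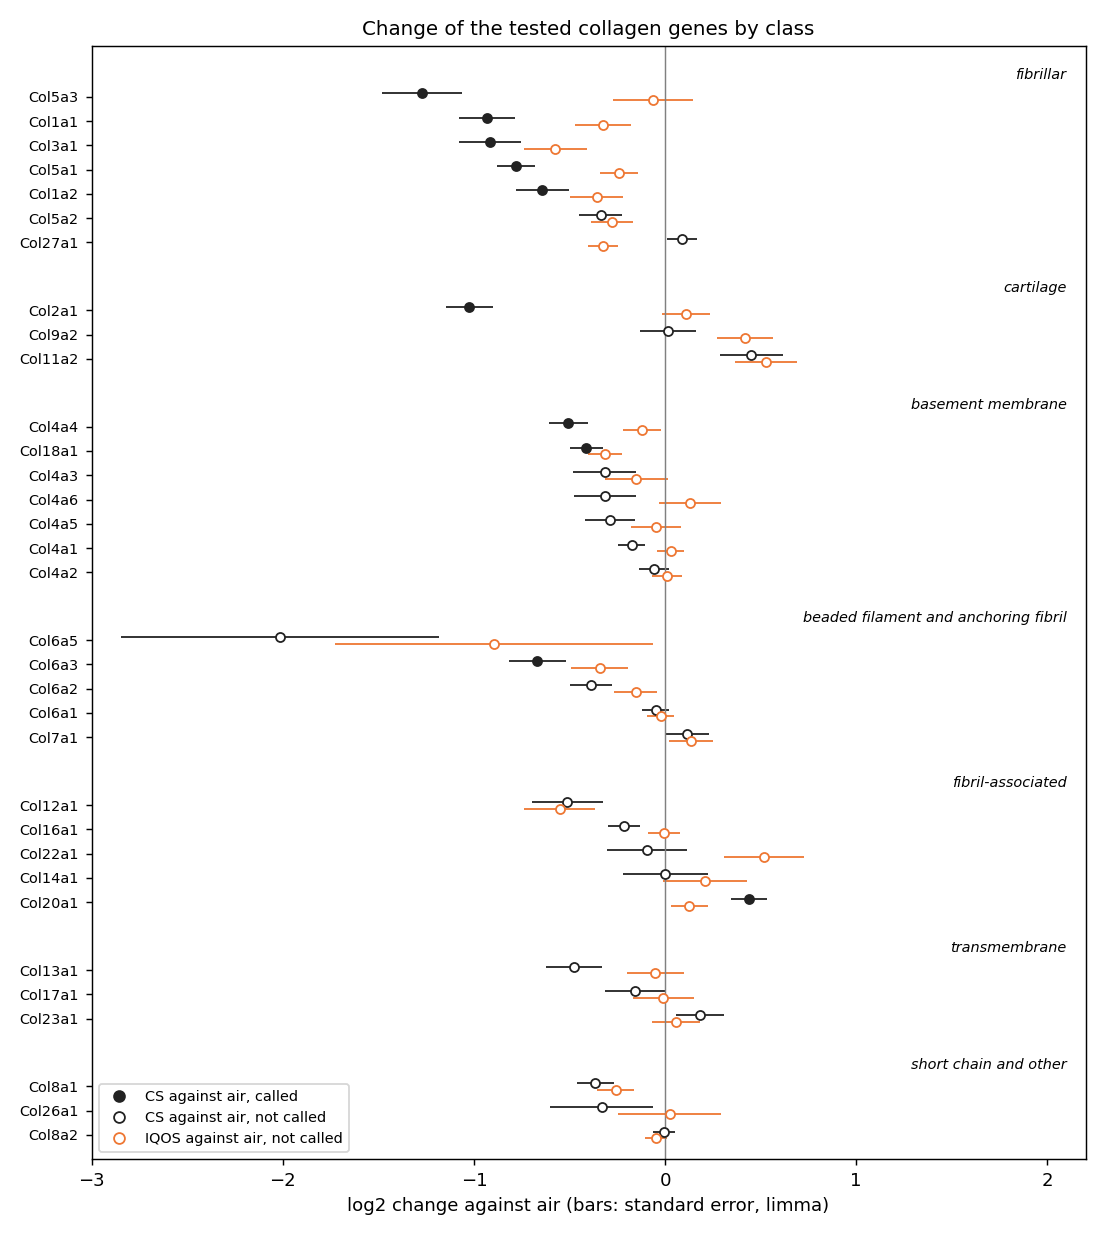
Log2 change against air (x axis, with the standard error from limma as bars) of the 33 tested collagen genes, grouped by class, for CS in black and IQOS in orange. Filled points were called at an adjusted p under 0.05. The filled points are 9 genes to the left of 0 and Col20a1 to the right, all for CS.

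The levels below are relative signals, a probe's brightness divided by the 75th percentile of its array. Brightness depends on the probe, so levels are compared between groups and not between genes. Col1a1 and Col1a2 encode the chains of type I collagen, the main fibril of the lung. Col1a1 had relative signals of 13.1, 14.6 and 13.2 in air, 7.52, 8.68 and 5.59 in CS, and 10.7, 10.9 and 11.1 in IQOS. The 3 groups did not overlap, with IQOS between air and CS. In CS it fell by 0.93 ± 0.15 on the log2 scale (standard error, n = 3 arrays a group), a 1.91-fold difference (adjusted p 0.012). The gene's other probe changed by -0.97. Col1a2 had 46.8, 55.1 and 48 in air, 34.7, 36.8 and 25.5 in CS, and 36.7, 40.8 and 39.3 in IQOS. All CS and all IQOS arrays were below air, and CS 3 was the lowest. It fell by 0.64 ± 0.14 in CS (adjusted p 0.0297), and leaving out air 1, air 2 or air 3 ended this call (adjusted p up to 0.0786).

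Col3a1 and 2 of the 3 type V chain genes fell too. Col3a1, whose product forms mixed fibrils with type I, had 11.5, 11.7 and 11.6 in air, 6.67, 7.47 and 4.7 in CS, and 6.92, 8.05 and 8.53 in IQOS. Both exposed groups lay below air and overlapped each other. Its fall in CS was 0.91 ± 0.16 (adjusted p 0.017, and 0.0643 without air 1). Col5a1 encodes the chain of type V collagen that starts fibrils and limits their width. It had 4.1, 4.63 and 3.92 in air, 2.5, 2.44 and 2.41 in CS, and 3.46, 4.05 and 3.21 in IQOS. The CS arrays were the lowest and closest together, and IQOS overlapped air. The fall of Col5a1 in CS was 0.78 ± 0.10 (adjusted p 0.00667), and it was called without each of the 9 arrays in turn, as were those of Col1a1, Col5a3 and Col2a1.

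Col5a3, the less widespread type V chain, had the largest fall among the called collagen genes. Its signals were 0.427, 0.629 and 0.505 in air, 0.217, 0.271 and 0.164 in CS, and 0.46, 0.572 and 0.454 in IQOS. It fell by 1.27 ± 0.21 in CS, or 2.42-fold (adjusted p 0.0139), and IQOS lay within the range of air. Col5a2, the partner of Col5a1 in most type V molecules, had 0.411, 0.386 and 0.389 in air and 0.279, 0.372 and 0.296 in CS. Those groups did not overlap, but the change of -0.34 ± 0.11 did not pass (adjusted p 0.0929, 95% interval -0.59 to -0.08). Col27a1, a fibrillar chain best known from cartilage, had 0.257, 0.294 and 0.303 in air and 0.3, 0.319 and 0.288 in CS, which overlapped (0.09 ± 0.08, adjusted p 0.485). The eighth fibrillar gene, Col24a1, was not well above background on any array and was not tested. No gene of the fibrillar class was called higher in CS.

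**Figure D2:**
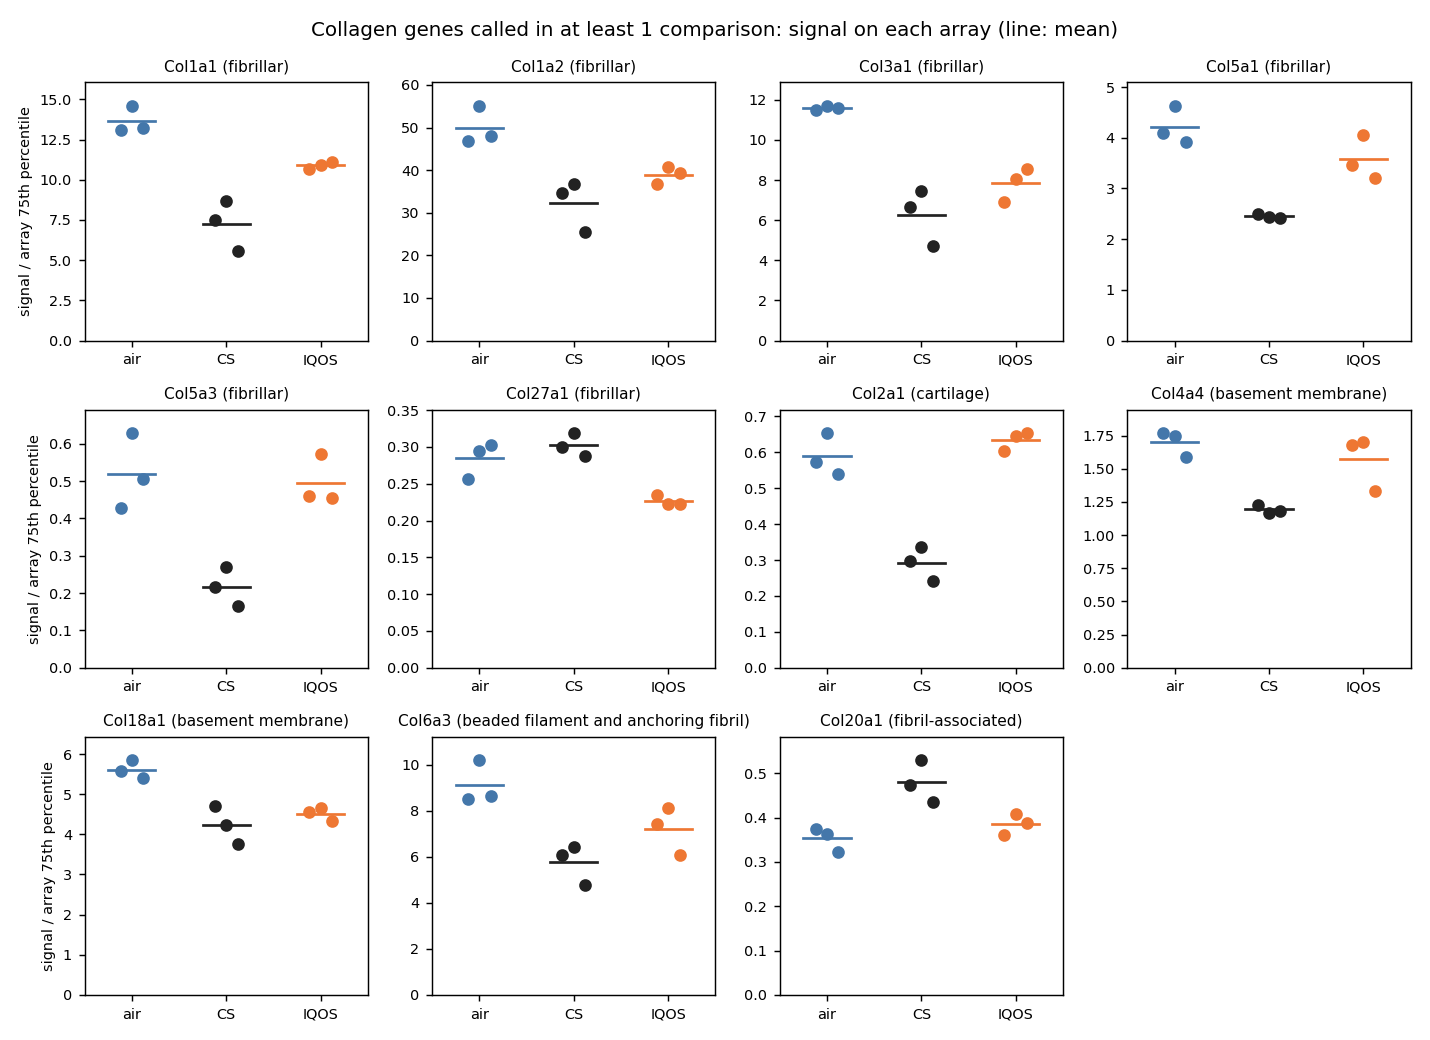
Relative signal (y axis, multiples of the array's 75th percentile, from 0) on each air, CS and IQOS array for the 11 collagen genes called in at least 1 comparison, with the group mean as a line. In 9 of the panels every CS point lies below every air point, and in the Col20a1 panel every CS point lies above.

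Of 7 tested basement membrane genes 2 fell in CS and 0 rose, with a median of -0.31, where 6.12% of all tested genes fell and 5.59% rose with a median of -0.02. Col4a1 and Col4a2, the chains of type IV collagen found in nearly all basement membranes, were not called. Col4a1 had 12.7, 13.1 and 12 in air, 10.5, 11.5 and 11.5 in CS, and 12.4, 13.6 and 12.5 in IQOS (-0.18 ± 0.07 for CS against air, adjusted p 0.142, 95% interval -0.33 to -0.02). Col4a2 had 13.2, 13.7 and 12 in air, 11.6, 12.6 and 13.2 in CS, and 13.1, 13.7 and 12.4 in IQOS (-0.06 ± 0.08, adjusted p 0.658, interval -0.24 to 0.12). The groups overlapped for Col4a2, and for Col4a1 the CS arrays lay below air by little. Col4a4 belongs to the α3, α4 and α5 network of alveolar and kidney basement membranes. It had 1.77, 1.75 and 1.59 in air, 1.23, 1.17 and 1.18 in CS, and 1.68, 1.7 and 1.33 in IQOS, with no overlap between CS and either other group.

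Col4a4 fell by 0.51 ± 0.10 in CS (adjusted p 0.0241), a call that ended without air 1, air 2, CS 2 or CS 3 (up to 0.0898). Its partners Col4a3 and Col4a5 changed by -0.32 ± 0.17 and -0.29 ± 0.13 and did not pass (adjusted p 0.249 and 0.193). For both, every CS array was nevertheless below every air array. Col4a6, expressed with Col4a5 around smooth muscle, changed by -0.31 ± 0.16 without passing (adjusted p 0.247). Col18a1, whose C-terminal fragment is endostatin, had 5.58, 5.85 and 5.41 in air, 4.71, 4.23 and 3.77 in CS, and 4.56, 4.65 and 4.34 in IQOS. Both exposed groups lay below air. In CS it fell by 0.41 ± 0.09 (adjusted p 0.0277), and the call ended without air 1, 2 or 3 and without CS 2 or CS 3 (up to 0.0902). Col15a1, the other multiplexin, was well above background on only 2 arrays, both air, and was not tested.

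Among the cartilage genes only Col2a1 was called. It encodes type II collagen, the fibril of cartilage, and had 0.573, 0.653 and 0.541 in air, 0.297, 0.335 and 0.242 in CS, and 0.603, 0.645 and 0.654 in IQOS. All CS arrays were below all others, and IQOS and air overlapped. It fell by 1.02 ± 0.12 in CS, or 2.03-fold (adjusted p 0.00589). The other tested genes of the class, Col9a2 and Col11a2, changed by 0.02 ± 0.15 and 0.45 ± 0.16 (adjusted p 0.955 and 0.115). Col9a1, Col9a3, Col10a1 and Col11a1 were well above background on 1, 3, 0 and 0 of the 9 arrays and were not tested.

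Of 10 chondrocyte markers, Sox9, Matn4 and Comp were bright enough to be tested. The defining Acan (aggrecan), Matn3, Hapln1 and Snorc were well above background on 0 of the 9 arrays, and Matn1, Cnmd and Ucma on 1 each. None of the 3 tested markers was called between CS and air in limma, and 0 had an unadjusted p under 0.05. The summed relative signal of the list was 3.64 to 4.35 in air, 3.72 to 4.07 in CS and 2.94 to 3.62 in IQOS, and nearly all of it came from Matn4 (means of 3.74, 3.75 and 3.25). Col2a1 is represented by 1 probe, so no other probe could be set beside it.

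Type VI collagen forms beaded filaments from the chains of Col6a1, Col6a2 and Col6a3, and 1 of these 3 genes was called. Col6a1 had 21, 22.4 and 22.1 in air, 21.1, 22.5 and 19.8 in CS, and 21, 22.8 and 20.6 in IQOS. The 3 groups overlapped, with a change of -0.05 ± 0.07 in CS (adjusted p 0.699, 95% interval -0.21 to 0.12). Col6a3 had 8.5, 10.2 and 8.64 in air, 6.09, 6.42 and 4.78 in CS, and 7.43, 8.14 and 6.08 in IQOS. It fell by 0.67 ± 0.15 in CS (adjusted p 0.0323), its other probe changed by -0.72, and the call ended without any 1 of the air or CS arrays (up to 0.0837). Col6a2 lay between these, with a change of -0.39 ± 0.11 that did not pass (adjusted p 0.0647). The difference between chains of 1 type was not tested.

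Col6a5, a chain with limited expression, was not well above background on any CS array. Its signal was 0.416 on air 1, 0.0324 and 0.0441 on the other air arrays, and 0.0382 to 0.0542 in IQOS. The mean of air was at least 3.15-fold higher than CS, computed against the background limit, and at least 1.41-fold without air 1. Col6a5 was tested only because its air and IQOS arrays were well above background, so a higher level there follows in part from that selection. The fit did not call it (adjusted p 0.157). Col7a1, the anchoring fibril chain, changed by 0.12 ± 0.12 (adjusted p 0.549), and Col6a4 and Col6a6 were too dim to be tested.

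**Figure D3:**
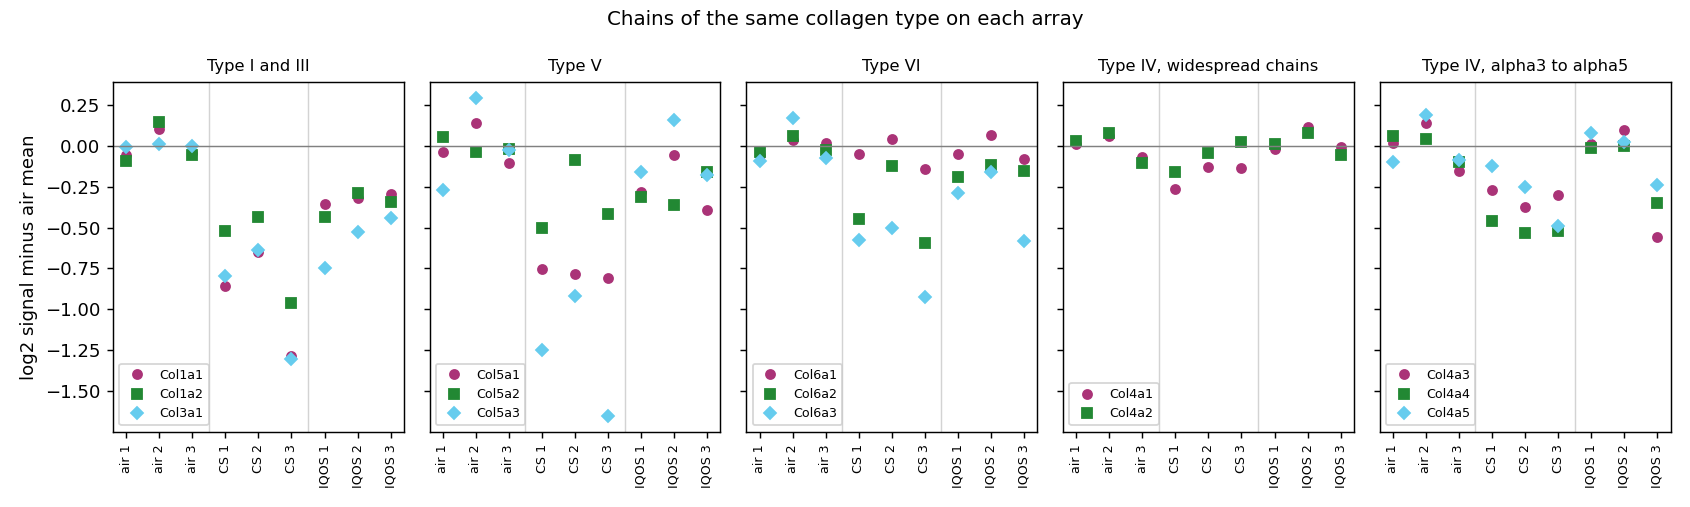
Log2 signal minus the air mean (y axis) on each array for chains that belong to the same collagen type or assemble together. In the CS arrays Col1a1 and Col3a1 lie close to each other, Col6a1 stays near 0 while Col6a3 lies below, and Col4a1 and Col4a2 stay nearer to 0 than Col4a4.

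The single collagen gene that rose in CS was Col20a1, a fibril-associated chain of little-known function. It had 0.375, 0.363 and 0.322 in air, 0.474, 0.53 and 0.436 in CS, and 0.36, 0.409 and 0.389 in IQOS. All CS arrays were above all others. The rise was 0.44 ± 0.10 (adjusted p 0.0304), and the call ended without air 1, 2 or 3 and without CS 1 or CS 2 (up to 0.0926). Of its class, Col12a1, which coats type I fibrils, changed by -0.51 ± 0.19 (adjusted p 0.117) and Col14a1 by 0.00 ± 0.22. Col16a1 changed by -0.21 ± 0.08 and did not pass. Col22a1, a chain of tissue junctions, had a pair of tested probes with opposite signs in each comparison (-0.09 and 0.62 for CS against air), and no direction is given for it. In the last 2 classes no gene was called by its brightest probe. Col13a1, a cell surface collagen, changed by -0.48 ± 0.15 (adjusted p 0.078) and Col8a1, a vascular short chain collagen, by -0.37 ± 0.10 (adjusted p 0.0518). Col17a1, a hemidesmosome collagen, changed by -0.16, and its dimmer probe was called higher (0.33, adjusted p 0.0357). Col23a1, a cell surface collagen, changed by 0.18 ± 0.13 (adjusted p 0.378), with probes of differing sign. Col8a2, the partner of Col8a1, changed by -0.00 ± 0.06 and Col26a1 by -0.33 ± 0.27. The dim genes Col19a1, Col25a1 and Col28a1 were not tested.

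There were 8 neighbouring pairs of collagen genes in the order of protein-coding genes. In CS the neighbours Col3a1 and Col5a2 changed by -0.91 and -0.34, Col4a4 and Col4a3 by -0.51 and -0.32, Col6a2 and Col6a1 by -0.39 and -0.05, Col4a1 and Col4a2 by -0.18 and -0.06, and Col4a6 and Col4a5 by -0.31 and -0.29. The other pairs held a gene that was not tested. Within each of these 5 pairs both changes were negative, as were those of 26 of the 33 tested collagen genes. Against air 3 alone, the only air array in the same slide row as CS, Col4a1 was -0.10 and Col4a2 0.049. Both genes of every other such pair stayed negative there. Differences within a pair were not tested.

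With IQOS no collagen gene was called against air in limma, where 1.99% of all tested genes were higher and 0.886% lower. At an unadjusted p under 0.05, 12 of the 33 genes differed, as did 20.3% of all tested genes, and the median change of the 33 was -0.05. All 7 tested fibrillar genes had a negative change (median -0.32), as did 52.7% of all tested genes. Both comparisons against air use the same 3 air arrays, so a high air array lowers both. The largest change among these 7 was that of Col3a1 (-0.57 ± 0.16, adjusted p 0.0949, 95% interval -0.95 to -0.20). It passed without CS 3 (adjusted p 0.0315), an array that enters this comparison through the shared spread only. Col1a1 changed by -0.32 ± 0.15 (adjusted p 0.243) and Col1a2 by -0.36 ± 0.14 (adjusted p 0.185). For these 3 genes every IQOS array was below every air array. Such separation was found for 11 of the 33 genes (33.3%, against 15.1% of all tested genes), among them Col18a1, Col6a3 and Col8a1. In the other direction 2 genes, Col9a2 and Col11a2, lay above every air array (13% of all tested genes did). Basement membrane genes had a median of -0.05, and Col4a1 and Col4a2 changed by 0.03 ± 0.07 and 0.01 ± 0.08.

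By brightest probes, Col27a1 was the only collagen gene called lower in IQOS than in CS, and the dimmer probe of Col22a1 was called lower too (-0.81, adjusted p 0.0489, against 0.62 for its brighter probe). The IQOS signals of Col27a1 were 0.235, 0.222 and 0.222, below every air and CS array. It was lower than in CS by a log2 difference of -0.42 ± 0.08 (adjusted p 0.0198). Against air the change of -0.33 ± 0.08 did not pass (adjusted p 0.0628). With background correction by normexp in place of the scanner's own, Col27a1 (-0.27) and Col18a1 (-0.35) were called lower and Col11a2 (0.31) higher between IQOS and air.

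Between the exposures, 4 of the 33 genes were higher in IQOS than in CS (12.1%, against 4.94% of all tested genes) and 1 was lower (3.03%, against 5.17%). Col2a1 was higher by 1.14 ± 0.12 (adjusted p 0.00351), Col5a3 by 1.21 ± 0.21 (adjusted p 0.015) and Col5a1 by 0.54 ± 0.10 (adjusted p 0.0187). Col1a1 was higher by 0.61 ± 0.15 (adjusted p 0.0399). The lower gene was Col27a1. On all 3 IQOS arrays 11 genes were above every CS array (33.3%, against 18.5% of all tested genes) and 2, Col20a1 and Col27a1, were below (against 16.8%). Leaving out 1 array did not end the call of Col2a1. Without IQOS 2 that of Col5a3 ended (adjusted p 0.0515), without CS 2 or CS 3 that of Col5a1 (up to 0.062), and without CS 2, IQOS 2 or IQOS 3 that of Col27a1 (up to 0.0702). The call of Col1a1 held only without CS 2 or CS 3 and otherwise reached 0.0996. Col1a2 and Col3a1 changed by 0.28 ± 0.14 and 0.34 ± 0.16 and did not pass (adjusted p 0.224 and 0.218), with 95% intervals of -0.03 to 0.60 and -0.03 to 0.72. The median over the 33 genes was 0.21, over the fibrillar genes 0.34 (0.14 without CS 3), and over all genes 0.02. The IQOS arrays alone were on the second slide, while air and CS shared the first, so an effect of slide cannot be told apart from one of IQOS.

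The position of an array within its slide moved with the smoke comparison. All CS arrays lay in row 2 of a slide, with air 3, and air 1 and air 2 lay in row 1, as did all IQOS arrays. With array row as a covariate 0 of the 10 calls between CS and air and 0 of the 5 between IQOS and CS remained, in a fit that takes the row term from the air arrays alone. Within row 2, where CS can be set against air 3 only, the difference was -0.89 for Col1a1, -0.59 for Col1a2, -0.92 for Col3a1, -0.68 for Col5a1, -1.25 for Col5a3 and -0.91 for Col2a1. In that row 27 of the 33 genes were lower in CS, as were 50.9% of all tested genes. Within row 1, IQOS minus the mean of air 1 and air 2 was -0.35 for Col1a1, -0.57 for Col3a1 and 0.05 for Col2a1.

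Lists of genes whose products modify, trim, crosslink, bind and degrade collagen were read from the same fit, and their counts in CS stand against 6.12% of all tested genes called lower and 5.59% called higher. With array row as a covariate 1 of the 16 calls in these lists between CS and air remained, that of Ctsk, and 0 of the 10 between IQOS and CS. Of 15 tested genes for prolyl and lysyl modification, 3 fell in CS and 0 rose (median -0.10). They were P3h4 (-0.34) and Fkbp10 (-0.38), partners of the hydroxylases, and Colgalt2 (-0.59), which adds galactose to collagen. Each of these calls ended without most of the single arrays (adjusted p up to 0.118). None of the 9 folding and export genes was called in CS in limma, with 2 at an unadjusted p under 0.05, and the disulphide isomerase gene Pdia3 fell in IQOS by 0.58 (adjusted p 0.0223, and up to 0.0923 without air 1, 2 or 3 or IQOS 2, and 0.0706 with array row). Of 6 propeptide cleavage genes 2 fell in CS, the N-propeptidase gene Adamts2 (-0.45, up to 0.0741 without air 1, air 3 or CS 3) and the C-proteinase enhancer gene Pcolce (-0.32, lost without each of the 9 arrays, up to 0.118).

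Among lysyl oxidase genes Loxl1 fell in CS by 1.01 ± 0.12 and Loxl2 by 0.50 ± 0.10, while Lox changed by 0.02 (adjusted p 0.963). The call of Loxl1 held without each array but not with array row (adjusted p 0.0664), and that of Loxl2 ended without air 1, 2 or 3 and without CS 2 or CS 3 (up to 0.0667). In the crosslinking list 2 of 6 genes fell and 0 rose, and the same genes were higher in IQOS than in CS (0.73 and 0.49). Of 12 fibril organisers and of 10 collagen receptors 1 each was called lower, shares near that of all genes. All 12 organisers had a negative change in CS (median -0.26), as did 7 of the 10 receptors (median -0.095). Of all 16590 tested genes 8795 had a negative change (median -0.02). These shifts were not tested. The organiser was the basement membrane proteoglycan gene Prelp (-0.40, up to 0.0816 without air 1, air 2 or any CS array). The receptor was Ddr2 (-0.38, 0.0671 without air 1), a kinase receptor for fibrillar collagen. Of 7 tested collagen-degrading enzymes 1 rose in CS, the cathepsin gene Ctsk (2.12 ± 0.17, adjusted p 0.00193), and the list's median was -0.12. In that list 3 changes were positive and 4 negative, and 4 genes had an unadjusted p under 0.05 in limma. Mmp8 (2.91 ± 0.81, adjusted p 0.0579) and Mmp9 (1.70 ± 0.50, adjusted p 0.0659) had large positive changes that did not pass. The list's summed relative signal was 14.8 to 17.3 in air, 34.1 to 42 in CS and 15 to 19 in IQOS. Most of its rise in CS came from Ctsk (means of 4.57 in air and 19.8 in CS) and Mmp8 (0.729 and 6.97). The sum therefore does not describe the list as a group. Of 13 TGF-beta signalling genes Tgfb1 rose (0.24) and Tgfb3 fell (-0.32), both calls being lost without several single arrays (up to 0.106). Of 13 basement membrane partners 3 fell, Nid2 (-0.42), Lama4 (-0.41) and Hspg2 (-0.46), and Lama5 (0.30) rose. Of these the call of Nid2 held without each array but not with array row (adjusted p 0.111), and the others reached 0.112 without 1 array.

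Whole lung mixes many cell types, and fewer cells of a type and less RNA per cell cannot be told apart in such samples. The 7 alveolar type II markers were bright on all arrays, with a summed relative signal of 1160 on each air array, 1180 to 1260 in CS and 1070 to 1190 in IQOS. In limma 0 of them were called between CS and air, and 3 had an unadjusted p under 0.05. Of 12 fibroblast markers 0 were called between CS and air in limma, 3 had an unadjusted p under 0.05, the median was -0.28 and the summed signal was 291 to 305 in air, 269 to 290 in CS and 277 to 324 in IQOS. Of 7 smooth muscle markers Lmod1 (-0.73) and Des (-0.56) fell. Their list's sum was 69.9 to 82.5 in air, 44.7 to 59.9 in CS and 53.7 to 68.7 in IQOS. Of 6 pericyte markers Pdgfrb (-0.56) and Cspg4 (-0.44) fell, with sums of 38.9 to 43.8, 31.3 to 35 and 31.5 to 38.7. Of 6 macrophage markers 5 rose in CS, and the sum went from 49.7 to 54.2 in air to 103 to 131 in CS, against 56.6 to 57.8 in IQOS. The call of Des was lost without each of the 9 arrays in turn, that of Cspg4 without 8 of them (adjusted p up to 0.114), and that of Pdgfrb without air 1 alone (0.0598). Of 7 endothelial markers 1 fell in CS, Tek (-0.435, adjusted p 0.0204, up to 0.0741 without air 1 or CS 2), and the list's median was -0.18. With array row as a covariate 6 of the 10 calls among all marker lists remained, those of Lmod1 and the 5 macrophage markers. No adipocyte, cardiac muscle or neutrophil marker was called between CS and air in limma (3, 0 and 5 had an unadjusted p under 0.05), but their medians were -0.78, -0.51 and 2.23. On CS 1, 2 and 3 the adipocyte median was -0.65, -0.29 and -1.31 and the cardiac median -0.21, -0.18 and -1.03 against the air mean. Both were lowest on CS 3, as were the fibrillar, smooth muscle (-0.78), pericyte (-0.415) and fibroblast (-0.38) medians, but not the macrophage median. Over the air arrays the cardiac median ran from -0.52 to 0.44 and the fibrillar median from -0.055 to 0.10. On IQOS 3 the cardiac median was 0.42 and the fibrillar median -0.34. The summed neutrophil signal was 182 to 229 in air, 330 to 739 in CS and 173 to 426 in IQOS. All markers of the fibroblast, smooth muscle, pericyte and macrophage lists were bright enough to be tested, and their part in the collagen results was not tested.

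**Figure D4:**
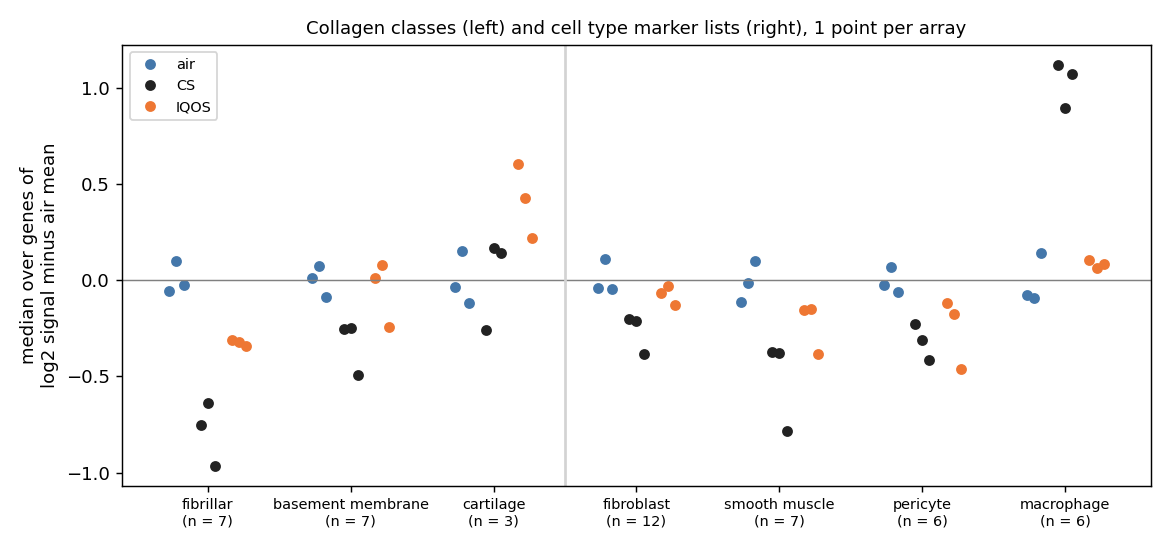
Median over the tested genes of a list of the log2 signal minus the air mean (y axis), 1 point per array, for 3 collagen classes and 4 cell type marker lists. On the CS arrays the fibrillar median was -0.75, -0.64 and -0.96, the fibroblast median -0.20, -0.21 and -0.38, and the macrophage median 1.12, 0.90 and 1.07.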

How the data were processed

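The deposited spot intensities come from Agilent's scanner software, Feature Extraction version 10.7.1.1 (per the file headers), which writes a background-subtracted signal with no normalization between arrays. The other deposited values, flags of outlier spots and of signal well above background, are the same software's. The series matrix deposited by the authors holds a linear ratio of signal to the array's 75th percentile, a scale found from the values. Its columns and the spot files carry 9 samples.

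Outlier spots were left out and log2 signals were averaged per probe. Each array's 75th percentile (973.3 to 1098 units) was subtracted as log2. Of 56605 probes, 64.3% to 68.8% an array were well above background, and 0 spots were saturated. Signal over background and the number of arrays limit the precision. Tested probes had values on 2 or more arrays of each group, and in at least 1 group all of its arrays with values were well above background. Probe accessions were matched to RefSeq, which named 32994 probes, and the brightest probe stood for a gene. All 9 arrays were fitted with limma 3.58.1 in R 4.3.3. The planned mean signal columns were not used, since the files hold median signals, which served for the normexp alternative. The fit was also run on simulated data without effects of row or slide, so that run cannot speak to effects of row or slide in these arrays. The numbers in the labels were not taken as pairs, since same-numbered arrays correlated above 0.1 in only 4 of 9 cases. However, 7 of the 9 arrays correlated best with an array of their own number, so a shared batch was not excluded. Counts with these numbers as a block are given in the closing section.

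The members, classes and gene lists were chosen with earlier results of these data known. Values were given for every called collagen gene and for Col1a1, Col1a2, Col3a1, Col4a1, Col4a2, Col2a1 and Col6a1, and from other lists for at most 4 called genes per comparison. Genes named beyond these, such as Mmp8 and Mmp9, were named after their values were seen. Alternatives are given in the closing section.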

Additional observations from a re-analysis of the deposited data

How the results depend on the processing

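Between CS and air 10 collagen genes were called, and 5 with no filter on dim probes, which tests more probes, 0 with array row as a covariate, 2 with at least a 2-fold change, and 5 to 10 without 1 array, with 5 without air 1 or air 2 and 6 without air 3. Between IQOS and CS 5 were called, 0 with array row, 2 with at least a 2-fold change, and 2 to 5 without 1 array (3 without CS 2, 2 without IQOS 2). Between IQOS and air 0 were called, 3 with normexp background correction, 3 at an adjusted p under 0.1, and 0 to 1 without 1 array. The cause was not tested where none is named. All other counts were within 1.5 times. With the replicate block, 10, 6 and 0 genes were called in these comparisons. It added Col4a4 between IQOS and CS (adjusted p 0.0488), and 7 of the 9 arrays correlated best with an array of their own number.

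Among the 11 called genes and Col4a1, Col4a2 and Col6a1, changes that were not called reversed in these cases. Between IQOS and air Col4a1 was -0.00412 with median centring, -0.0066 with array row or without air 3 and -0.0145 without IQOS 2 (up to 0.0574 without air 2). Col4a2 was -0.014 with normexp, -0.021 with median centring, -0.042 with array row or without air 3 and -0.0221 without IQOS 2 (up to 0.0496 without air 2). Col5a3 was 0.0094 with normexp and 0.0845 without air 2 (down to -0.195 without air 1), and Col6a1 was 0.00619 without IQOS 3 (down to -0.0661 without IQOS 2). With array row Col27a1 was -0.0038 and Col4a2 0.049 between CS and air, and Col4a2 -0.091 between IQOS and CS. Col6a1 between IQOS and CS was -9.5e-05 with median centring, -0.021 without CS 3 and -0.019 without IQOS 2 (up to 0.071 without CS 2). No called change of these genes reversed in any alternative. Of the 19 other tested genes, 5 turned sign between CS and air (Col8a2, Col9a2, Col14a1, Col17a1 and Col22a1, in 15 of 417 cases, such as Col14a1 at -0.39 with array row), 9 between IQOS and air (24 of 417) and 9 between IQOS and CS (20 of 417), with no called value among the reversed ones. The medians of classes moved beyond 1 standard deviation of the array medians in 20 of 480 cases. Dim genes limit the list: 11 of the 44 were not tested.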
